A study of Mus musculus with 6 samples.

Results

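The matricellular and fibroblast-type matrix genes are a set of 10 genes for secreted proteins of the extracellular matrix: Thbs1, Thbs2, Ccn1, Ccn2, Sparc, Tnc, Fn1, Postn, Dcn and Bgn. They were taken by symbol from the platform annotation, using the 23 probe sets that name exactly 1 of these genes. All 10 were measured, among 18193 genes read on the arrays. RNA came from 344SQ cells, a murine lung cancer line in culture, with PIK3CA shRNA (3 arrays) or with control shRNA (3 arrays). A short hairpin RNA (shRNA) silences the transcript it matches, here that of Pik3ca, the gene for the alpha isoform of the catalytic subunit of phosphoinositide 3-kinase. Both groups share the line, the serum-containing medium and lipid transfection of the hairpin vectors. The labels do not say how many hairpins were used, whether the cells were pooled or clonal, or whether the replicates were separate cultures, so the spread between arrays, and every p-value, may be technical.

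Matricellular proteins are secreted into the matrix but act mainly as signals: they bind integrins, syndecans and other receptors, as well as growth factors, rather than bearing load. Thrombospondins, CCN proteins, SPARC, tenascins and periostin belong to this class. Fibronectin is a structural glycoprotein, and decorin and biglycan are small leucine-rich proteoglycans that bind collagen. In tumours much of this matrix is made by fibroblasts, but carcinoma cells also make some of it.

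Of the 10 genes, 3 fell in PIK3CA shRNA cells, namely Thbs1, Ccn1 and Dcn, and 1 rose, Sparc. The other 6 did not pass the test. Thbs1 and Ccn1 were at 52.8% and 62.3% of the control intensity by their brightest probe sets, and every probe set of these 2 genes fell. For Dcn and Sparc the probe sets of the gene disagreed. The test was limma across all 18193 genes on log2(intensity + 16), two-sided, with Benjamini-Hochberg adjustment and a threshold of adjusted p 0.05, and 11.5% of all genes passed it (5.62% lower and 5.88% higher). The median change of the 10 was -0.07, against -0.01 over all genes. On that scale a change is the mean of the PIK3CA shRNA arrays less that of the control shRNA arrays, and changes of dim genes come out too small. In each of the 4 genes that passed, all PIK3CA shRNA arrays lay on one side of all control shRNA arrays, as they did in 33.1% of all genes.

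Pik3ca, the target of the hairpin, changed by -0.94 (SE 0.05, limma adjusted p = 0.000762), with intensities of 1249, 1237 and 1220.1 in PIK3CA shRNA cells against 2450.5, 2324 and 2364 in control shRNA cells. That is the brightest of its 6 probe sets. The others were at 47.7% to 61.1% of control, except the dimmest, which was at 96.6% (change -0.01, limma adjusted p = 0.986 over all probe sets). With the mean of the probe sets, Pik3ca changed by -0.74 (limma adjusted p = 0.00343). Means of 20 epithelial markers ran from 4.83 to 14209 in PIK3CA shRNA cells and from 4.53 to 13909.8 in control shRNA cells. Esrp1 was the dimmest of them. The claudin genes Cldn3, Cldn4 and Cldn7 averaged 17.2, 99.2 and 117 in PIK3CA shRNA cells and 18.8, 82.2 and 156 in control shRNA cells. The keratin and cadherin genes of the list were bright. Krt8 and Krt18, keratins of simple epithelia, and the E-cadherin gene Cdh1 averaged 12469, 14209 and 11047 in PIK3CA shRNA cells and 11903, 13909.8 and 11344 in control shRNA cells. Epcam, an epithelial adhesion gene, averaged 368 ± 53.0 in PIK3CA shRNA cells and 467 ± 44.5 in control shRNA cells (SD, n = 3 each), which did not pass. Markers of other cell types ranged widely too. Means of 16 fibroblast markers ran from 4.87 to 311 in PIK3CA shRNA cells and from 6.37 to 470.0 in control shRNA cells, with the receptor gene Pdgfrb the dimmest and Pdgfra at 155 in PIK3CA shRNA cells and 141 in control shRNA cells. Means of 15 leukocyte markers ran from 8.46 to 1712 in PIK3CA shRNA cells and from 17.6 to 1082 in control shRNA cells, with Cd14, a lipopolysaccharide co-receptor gene, the brightest and the pan-leukocyte gene Ptprc at 58.6 in PIK3CA shRNA cells and 63.2 in control shRNA cells. The table holds no detection calls, so a dim reading cannot be told from background.

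**Figure D1:**
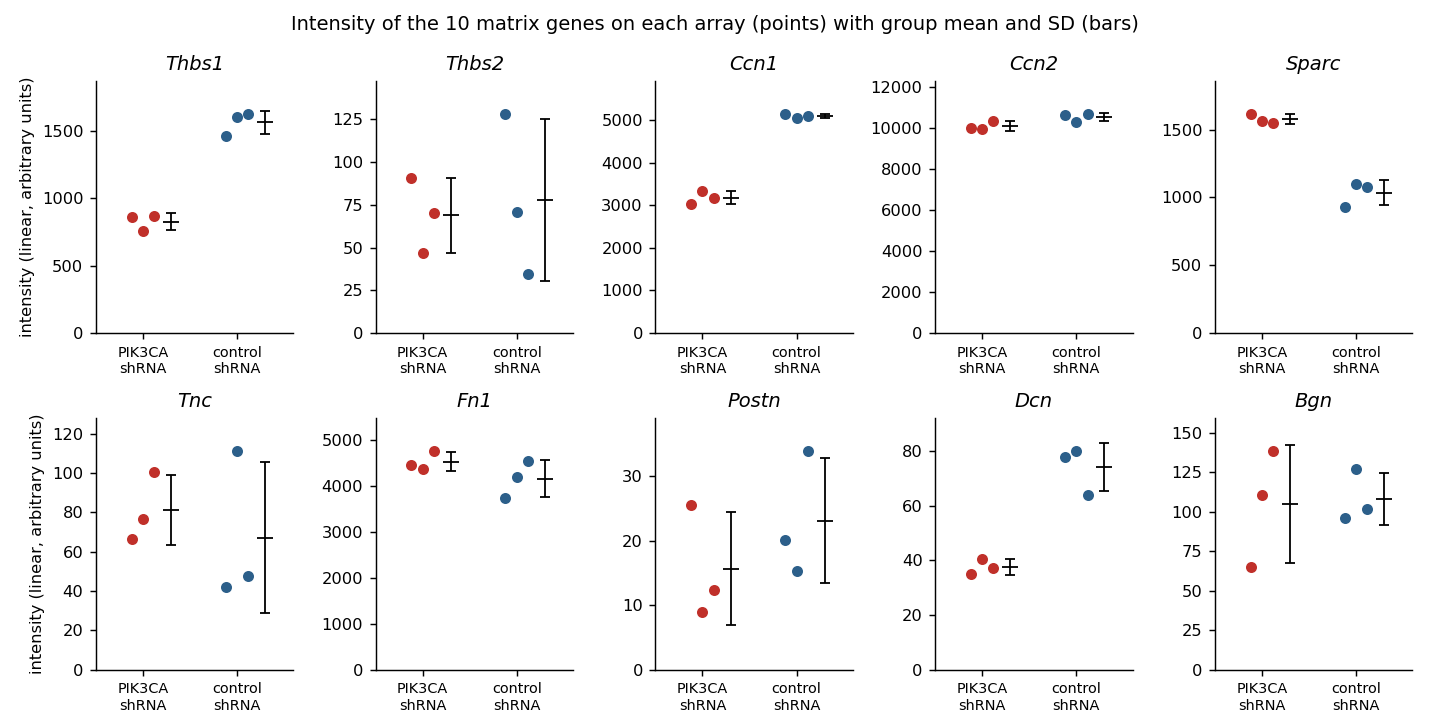
Intensity (linear scale, arbitrary units) of each of the 10 matrix genes by its brightest probe set, in PIK3CA shRNA cells (left) and control shRNA cells (right). Points are arrays, bars the group mean and SD (n = 3), and the groups separate for Thbs1, Ccn1, Sparc and Dcn and overlap for the other 6.

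Thbs1 encodes thrombospondin-1, which binds CD47 and CD36 and can activate latent TGF-beta. Its brightest probe set read 859, 755 and 865 in PIK3CA shRNA cells, against 1466, 1600.5 and 1627 in control shRNA cells. All 3 PIK3CA shRNA arrays lay well below all 3 control shRNA arrays. The mean was 827 ± 62.2 in PIK3CA shRNA cells and 1564 ± 86.3 in control shRNA cells (SD, n = 3 each). The change was -0.91 (95% interval -1.11 to -0.70, limma adjusted p = 0.00346). The other Thbs1 probe set read 408, 320.4 and 349 in PIK3CA shRNA cells against 683, 756 and 661 in control shRNA cells. It fell by 0.94 on the log2 scale in the fit over all probe sets (limma adjusted p = 0.0132). Both probe sets therefore gave nearly the same size of change, 52.8% and 51.3% of control. A further probe set that the annotation shares between Thbs1 and another gene was not used.

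Thbs2, which encodes the paralogue thrombospondin-2, an inhibitor of angiogenesis, was dim and did not pass. It read 90.6, 46.6 and 70.0 in PIK3CA shRNA cells against 128, 71.0 and 34.4 in control shRNA cells. The groups overlapped and each spread widely. The change was -0.05 with a 95% interval of -1.09 to 0.99 (limma adjusted p = 0.961), so a change as large as that of Thbs1 lay within it. The other 2 Thbs2 probe sets read -0.36 (95% interval -1.06 to 0.35) and -0.15 (-0.67 to 0.37) and did not pass either. The last of these intervals leaves out the change of Thbs1.

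Ccn1 encodes the integrin-binding protein also called CYR61, an immediate early gene product. It read 3029, 3332 and 3168 in PIK3CA shRNA cells against 5148, 5053 and 5107 in control shRNA cells. The control arrays lay within a narrow band, and every PIK3CA shRNA array was far below it. The mean was 3176 ± 152 in PIK3CA shRNA cells and 5103 ± 47.5 in control shRNA cells (SD, n = 3 each). The change was -0.68 (95% interval -0.83 to -0.53, limma adjusted p = 0.00328). The other 3 Ccn1 probe sets also fell, by between 0.60 and 0.69 on the log2 scale, to 65.1%, 65.0% and 61.2% of control, with limma adjusted p from 0.0171 to 0.0238 over all probe sets. A pair of these probe sets is annotated to the same sequence record, so they are not independent measurements.

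Ccn2 encodes connective tissue growth factor, the closest relative of Ccn1 in this set. It was bright on its only probe set, with 9975, 9932 and 10344 in PIK3CA shRNA cells against 10622, 10285 and 10673 in control shRNA cells. The highest PIK3CA shRNA array lay above the lowest control array, so the groups overlapped. The change was -0.06 with a 95% interval of -0.20 to 0.07 (limma adjusted p = 0.550). The whole of that interval lies closer to 0 than -0.53, the end nearest to 0 of the interval for Ccn1. Per array, the log2 value of Ccn1 minus that of Ccn2 was lower by 0.62 in PIK3CA shRNA cells (difference -0.62), with no overlap between groups. The exact two-sided permutation p was 0.1, the smallest that 3 against 3 arrays allow, and 0.15 adjusted over the 3 gene pairs so compared. The pairs were chosen after the values were seen, so these p-values only describe the separation. The corresponding difference for Thbs1 minus Thbs2 was -0.86, with overlap between the groups (exact permutation p = 0.2).

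Sparc encodes the collagen-binding glycoprotein osteonectin and moved the other way. It read 1617, 1568 and 1550.0 in PIK3CA shRNA cells against 931, 1099 and 1075 in control shRNA cells. Every PIK3CA shRNA array was above every control array. The mean was 1578 ± 34.5 in PIK3CA shRNA cells and 1035 ± 90.5 in control shRNA cells (SD, n = 3 each), 152% of control. The change was 0.60 (95% interval 0.40 to 0.81, limma adjusted p = 0.0110).

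The probe sets of Sparc did not all give this change. One annotated to the same transcript record read 1120.1, 1206 and 1238 in PIK3CA shRNA cells against 953, 816 and 830.3 in control shRNA cells. Its groups did not overlap either, but its change of 0.45 missed the threshold over all probe sets (limma adjusted p = 0.0557). The dimmest probe set had overlapping groups and a change of -0.13 (limma adjusted p = 0.612). With the mean of the 3 probe sets as the value of the gene, Sparc rose by 0.31 (limma adjusted p = 0.0480).

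Promoter sequence was at hand for 6 of the 10 genes (Bgn, Ccn1, Postn, Sparc, Thbs2 and Tnc), from RefSeq on build GRCm38.p6. The windows of Ccn1 and Sparc are printed because these genes changed in opposite directions. Each is the 250 bases before the annotated start, read 5′ to 3′ on the strand of the gene, at chr3:145649986-145650235 (minus strand) for Ccn1 and chr11:55420081-55420330 (minus strand) for Sparc. Capitals mark matches to the motifs searched.
Ccn1: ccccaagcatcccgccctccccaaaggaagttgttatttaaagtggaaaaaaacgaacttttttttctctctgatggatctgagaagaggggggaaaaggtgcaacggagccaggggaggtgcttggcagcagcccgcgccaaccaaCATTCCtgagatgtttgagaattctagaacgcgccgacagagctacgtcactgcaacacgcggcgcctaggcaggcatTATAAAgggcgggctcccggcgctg
Sparc: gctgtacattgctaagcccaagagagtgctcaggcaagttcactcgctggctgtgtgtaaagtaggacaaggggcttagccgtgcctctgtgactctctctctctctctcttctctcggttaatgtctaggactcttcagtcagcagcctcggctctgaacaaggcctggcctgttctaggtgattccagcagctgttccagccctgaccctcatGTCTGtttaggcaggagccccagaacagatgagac
All 5 motifs were searched on both strands. The hexamer bound by TEAD factors is GGAATG. The core promoter box that binds the general transcription machinery was searched as TATAAA. The site of the AP-1 factors, which answer to growth signals, is TGACTCA. The SMAD box, which binds effectors of TGF-beta, is CAGAC. The CArG box, bound by serum response factor, was searched in its usual degenerate form. In Ccn1 the capitals are the TEAD hexamer on the opposite strand, beginning 103 bases before the start, and the core promoter box, beginning 25 bases before it. In Sparc they are the SMAD box on the opposite strand, beginning 35 bases before the start. No matches overlapped in these 2 windows. Of all 32851 promoter windows of this length, 12.6% held the TEAD hexamer, 12.4% the core promoter box, 42.2% the SMAD box, 4.46% the AP-1 site and 1.47% the CArG box. Among the 8 windows of the 6 genes, the TEAD hexamer was found only in that of Ccn1, and the AP-1 and CArG letters in none. These are matches of letters, not shown binding sites.

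Fn1 encodes fibronectin, the ligand of integrin alpha5-beta1. It was at 4442, 4359 and 4761 in PIK3CA shRNA cells against 3726, 4190.0 and 4529 in control shRNA cells. The groups overlapped, with 1 control array above 2 of the PIK3CA shRNA arrays. The change was 0.13 with a 95% interval of -0.10 to 0.35 (limma adjusted p = 0.459). The other Fn1 probe set read -0.05 and did not pass.

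Tnc encodes tenascin-C, an anti-adhesive glycoprotein of wounds and tumour stroma. It read 66.4, 76.5 and 100.7 in PIK3CA shRNA cells against 42.2, 111 and 47.9 in control shRNA cells. A single control array was the highest of all 6 and the other 2 were the lowest, so the groups overlapped. The change was 0.30 with a 95% interval of -0.52 to 1.12 (limma adjusted p = 0.634). The other Tnc probe set averaged 2.57 ± 1.68 in PIK3CA shRNA cells and 2.84 ± 3.41 in control shRNA cells (SD, n = 3 each), far under the pseudocount.

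Postn encodes periostin, a matrix protein typical of activated fibroblasts. Its only probe set read 25.6, 8.97 and 12.4 in PIK3CA shRNA cells against 20.1, 15.3 and 34.0 in control shRNA cells. These values lie around the pseudocount of 16, and the groups overlapped. The change was -0.31 with a 95% interval of -0.95 to 0.33 (limma adjusted p = 0.522).

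**Figure D2:**
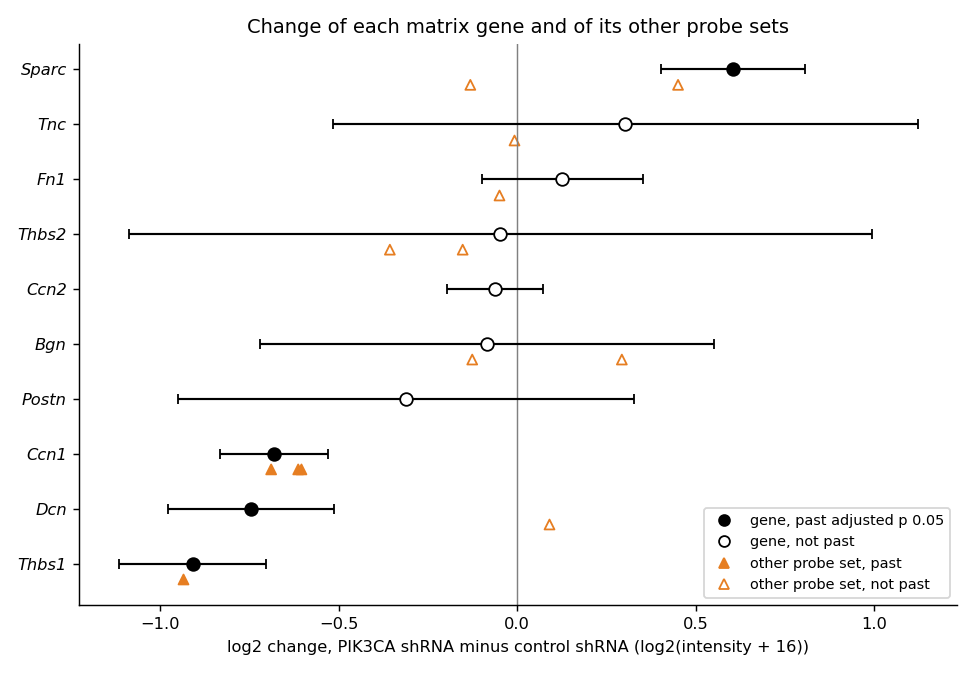
Log2 change, PIK3CA shRNA minus control shRNA, of each matrix gene by its brightest probe set (circles, with 95% intervals) and of its other probe sets (triangles). Filled symbols passed adjusted p 0.05; all probe sets of Thbs1 and Ccn1 sit left of -0.60, while those of Dcn and Sparc lie on both sides of 0.

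Dcn encodes decorin, a small leucine-rich proteoglycan that binds collagen fibrils and TGF-beta. Its brightest probe set read 35.0, 40.6 and 37.2 in PIK3CA shRNA cells against 78.0, 80.2 and 64.1 in control shRNA cells. The groups did not overlap, though every array was dim. The mean was 37.6 ± 2.81 in PIK3CA shRNA cells and 74.1 ± 8.75 in control shRNA cells (SD, n = 3 each), and the change was -0.75 (95% interval -0.98 to -0.51, limma adjusted p = 0.00918). At a pseudocount of 64 it was -0.44 and still passed (limma adjusted p = 0.00873).

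The second Dcn probe set, which the annotation ties to the RefSeq transcript, did not fall. It read 13.9, 12.4 and 14.3 in PIK3CA shRNA cells against 11.7, 12.3 and 11.4 in control shRNA cells, all below the pseudocount. The PIK3CA shRNA arrays were the higher ones, by 0.09, which did not pass (limma adjusted p = 0.550). The call for Dcn came from 1 of its 2 probe sets. With their mean as the value of the gene it was -0.33 (limma adjusted p = 0.0439).

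Of 16 fibroblast markers, none of them among the 10 genes, 3 collagen genes fell with Dcn and 13 did not pass. The summed intensity of the 16 was 1800 to 2373 in PIK3CA shRNA cells and 2411 to 2654 in control shRNA cells, without overlap. Over the 13 that did not pass, the sum overlapped, at 1067 to 1579 in PIK3CA shRNA cells and 1190.2 to 1377 in control shRNA cells. These 13 were picked by the test on these same arrays, so no conclusion is drawn from that overlap. By limma 3 fell and 0 rose, with a median change of -0.12. At an unadjusted p under 0.05 these counts were 4 and 0, against 13.2% of all genes lower and 12.7% higher. The 3 called genes were Col6a2 (-0.85), Col6a1 (-0.70) and Col5a1 (-0.45). Without 1 array, Col6a1 passed only when PIK3CA shRNA replicate 3 was left out (adjusted p up to 0.116). Col6a2 lost its call without control replicate 2 (adjusted p = 0.0509), and Col5a1 without control replicate 1 or 3 (up to 0.0525). The defining fibroblast collagens Col1a1 (-0.29), Col1a2 (-0.11) and Col3a1 (-0.09) did not pass, nor did Pdgfra (0.04) and Pdgfrb (-0.10). None of the 16 markers averaged 0, but the lowest deposited reading on every array was 0.0359, so this does not show that they were detected. In RNA from bulk cells, fewer cells of a type cannot be told apart from less RNA per cell, and the part of such cells in the Dcn reading was not tested.

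Bgn encodes biglycan, the proteoglycan closest to decorin in this set. It read 64.8, 111 and 139 in PIK3CA shRNA cells against 95.9, 127 and 102 in control shRNA cells. The lowest and the highest reading were both from PIK3CA shRNA arrays, so the groups overlapped. The change was -0.08 with a 95% interval of -0.72 to 0.55 (limma adjusted p = 0.879). Its other 2 probe sets read -0.13 and 0.29 and did not pass. Dcn minus Bgn per array was lower by 0.66 in PIK3CA shRNA cells (difference -0.66), with no overlap (exact two-sided permutation p = 0.1, or 0.15 adjusted over the 3 pairs). This pair too was chosen after the values were seen.

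**Figure D3:**
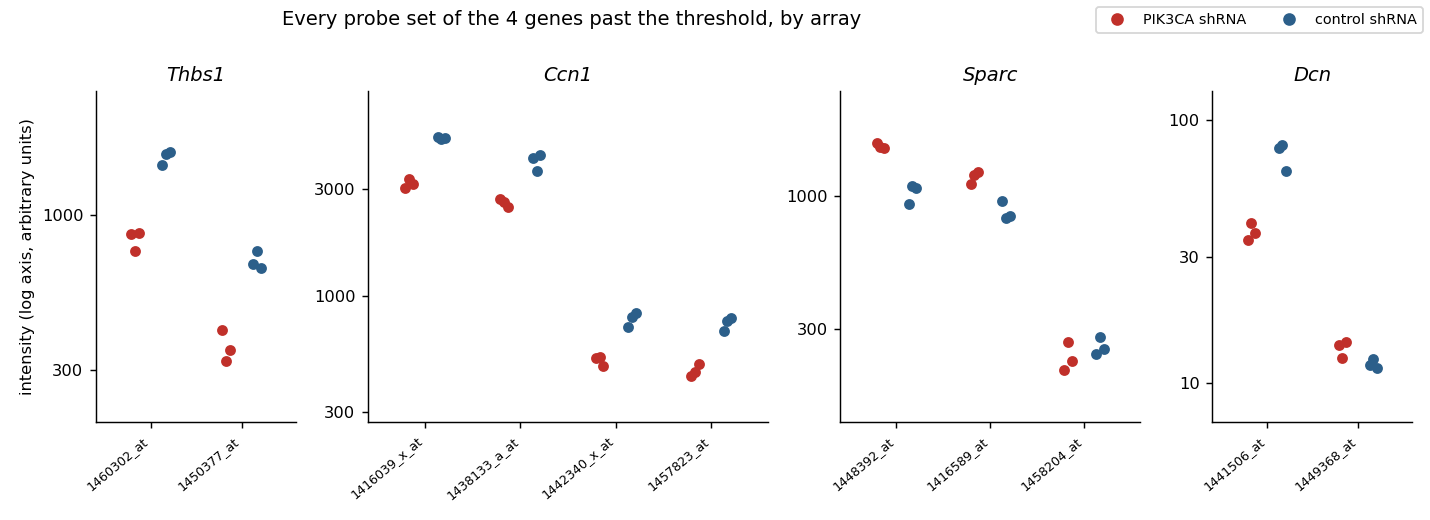
Intensity (log axis, arbitrary units) on each array for every probe set of the 4 genes that passed, with PIK3CA shRNA arrays left of control shRNA arrays. The 2 Thbs1 and 4 Ccn1 probe sets are all lower in PIK3CA shRNA cells; for Sparc 2 of 3 are higher, and for Dcn only the brighter is lower.

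Across all 23 probe sets of the 10 genes, 7 fell and 1 rose by limma. Of all 45037 probe sets 4.94% passed, 2.30% lower and 2.64% higher. The 7 were both of Thbs1, all 4 of Ccn1 and 1 of Dcn. With any 1 of the 6 arrays left out, between 2 and 4 of the 23 passed. The gene-level calls of Thbs1, Ccn1, Dcn and Sparc all held without each array in turn, with Thbs1 between -0.95 and -0.85 and Ccn1 between -0.72 and -0.65.

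Relatives of the 10 genes were read from a list of 20 further matricellular genes, 19 of them measured. Of these 3 rose and 0 fell by limma, with a median change of 0.06 (4 higher and 1 lower at an unadjusted p under 0.05, which 12.7% of all genes passed as higher and 13.2% as lower). Tnr, which encodes the tenascin of the nervous system, read 102, 116 and 134 in PIK3CA shRNA cells against 33.2, 30.5 and 32.1 in control shRNA cells. It rose by 1.47 (SE 0.10, limma adjusted p = 0.00147) and passed without each array in turn, but the filter on dim genes removed it. Thbs3, a pentameric thrombospondin gene, was dim, at 85.8, 48.9 and 84.3 in PIK3CA shRNA cells against 22.1, 33.2 and 12.1 in control shRNA cells. Its rise of 1.22 (limma adjusted p = 0.0454) held without PIK3CA shRNA replicate 2 but not without any other array (adjusted p up to 0.135). Igfbp7, which encodes an insulin-like growth factor binding protein of vascular matrix, rose by 0.30 (limma adjusted p = 0.0223). That call was lost without any 1 array (adjusted p up to 0.0803) and with the mean of its probe sets.

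Of 13 measured small leucine-rich proteoglycan genes other than Dcn and Bgn, 0 rose and 1 fell by limma, with a median of -0.13 (0 and 2 at an unadjusted p under 0.05, against 12.7% and 13.2% of all genes). It was Podn, which encodes podocan, at 267, 298 and 317 in PIK3CA shRNA cells against 392, 425 and 493 in control shRNA cells. The groups did not overlap, and the change was -0.55 (limma adjusted p = 0.0348). The call was lost without any 1 array (adjusted p up to 0.102).

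Of 24 measured receptor genes for these proteins, 4 rose and 1 fell, with a median change of 0.08. Over all genes, 5.88% rose and 5.62% fell. At an unadjusted limma p under 0.05, 6 of the 24 were higher and 3 lower, against 12.7% and 13.2% of all genes. Sdc4, which encodes syndecan-4, a heparan sulphate receptor for fibronectin, read 3362, 3155 and 3269 in PIK3CA shRNA cells against 1993, 2161 and 2162 in control shRNA cells. It rose by 0.63 (SE 0.06, limma adjusted p = 0.00464) and passed without each array in turn. Itgav, the integrin alpha-V gene whose product binds fibronectin, periostin and CCN proteins, rose by 0.46 to 8393 ± 351 in PIK3CA shRNA cells, against 6098 ± 216 in control shRNA cells (SD, n = 3 each). Its call was lost without PIK3CA shRNA replicate 3 or control replicate 2 (limma adjusted p up to 0.0507) and with the mean of its 5 probe sets. The syndecan-1 gene Sdc1 rose by 0.44, a call lost without PIK3CA shRNA replicate 3 or control replicate 1 or 2 (adjusted p up to 0.0564). Lrp1, an endocytic receptor gene for thrombospondins, rose by 0.63, a call that held without control replicate 3 but not without any other array (up to 0.0876). The lower one was Sdc2, syndecan-2, at -0.40, lost without any 1 array (up to 0.102) and named after its value was seen.

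TGF-beta ligands and signalling genes, which share a pathway with Thbs1, Ccn2 and Dcn, had 3 of 21 measured members higher and 1 lower, with a median of 0.08. Over all genes, 5.88% were higher and 5.62% lower. At an unadjusted limma p under 0.05, 5 of the 21 were higher and 3 lower, against 12.7% and 13.2% of all genes. The ligand gene Tgfb3 rose by 1.62 (limma adjusted p = 0.00159), on dim readings of 75.5, 54.9 and 68.2 in PIK3CA shRNA cells against 12.6, 9.82 and 9.33 in control shRNA cells. Ltbp1, which encodes a protein that stores latent TGF-beta in the matrix, fell to 2642 ± 102 in PIK3CA shRNA cells, against 4084 ± 347 in control shRNA cells (SD, n = 3 each). Its change was -0.62 (limma adjusted p = 0.0102). The transcriptional repressor gene Tgif1 rose by 0.52 (limma adjusted p = 0.00857). These 3 passed without each array in turn. Smad3, which encodes a signal transducer of the receptor, rose by 0.38 (limma adjusted p = 0.0272), a call that held without control replicate 3 but not without any other array (up to 0.0932).

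Ccn1 and Ccn2 are widely used as readouts of the YAP and TEAD transcription factors. Of 23 other genes described as YAP-TEAD targets, 3 rose and 2 fell, with a median of -0.03. Over all genes, 5.88% rose and 5.62% fell. At an unadjusted limma p under 0.05, 6 of the 23 were higher and 6 lower, against 12.7% and 13.2% of all genes. The tissue factor gene F3 rose by 0.49 (limma adjusted p = 0.00790), and the angiomotin-like gene Amotl1 fell by 0.56 on the log2 scale (limma adjusted p = 0.00955). Birc5, the survivin gene, which also follows the cell cycle, fell by 0.54 (limma adjusted p = 0.0113). These 3 passed without each array in turn, but Amotl1 did not pass with the mean of its probe sets. The kinase gene Nuak2 rose by 0.47 (limma adjusted p = 0.0135), a call lost without PIK3CA shRNA replicate 2 or 3 or control replicate 1 or 2 (up to 0.0551). The remaining rise, of the Hippo kinase gene Lats2 by 0.29, was lost without any 1 array (up to 0.121); it was named after its value was seen.

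**Figure D4:**
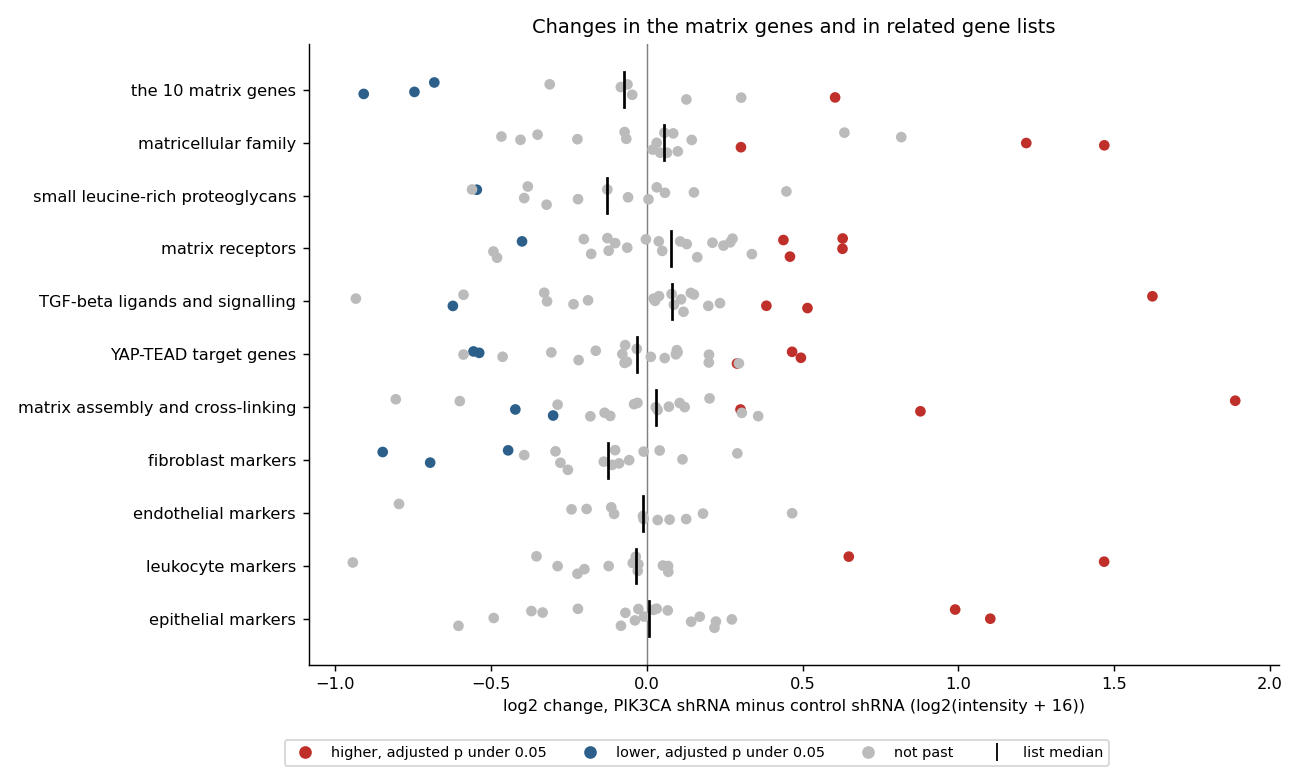
Log2 change, PIK3CA shRNA minus control shRNA, of each measured gene in the set of 10 and in 10 related lists. Red points were higher and blue points lower at adjusted p under 0.05, grey points did not pass, and black bars are list medians, which lie between -0.13 and 0.08.

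Of 12 endothelial markers 0 passed limma, and 2 had an unadjusted p under 0.05, against 25.9% of all genes: Pecam1 (-0.80) and Cdh5 (0.47), both junction genes. Their summed intensity overlapped, at 1339 to 1515 in PIK3CA shRNA cells and 1409 to 1477 in control shRNA cells. Of 15 leukocyte markers 2 rose, Fcgr3 (1.47), a gene for an Fc receptor, and Cd14 (0.65), and 0 fell. The median change was -0.04, with 10 of the 15 changes negative. At an unadjusted limma p under 0.05, 2 were higher and 1 lower, against 12.7% and 13.2% of all genes. The list had a summed intensity of 3177 to 3976 in PIK3CA shRNA cells and 2682 to 3020.5 in control shRNA cells, without overlap. Over the 13 that did not pass, the sum overlapped, at 1358 to 1826 in PIK3CA shRNA cells and 1532 to 1867 in control shRNA cells. Those 13 too were picked by the test on these same arrays, so no conclusion is drawn from that overlap. Of 20 epithelial markers 2 rose, Ocln (0.99) and Spint1 (1.10), and 0 fell. At an unadjusted limma p under 0.05, 5 were higher and 3 lower, against 12.7% and 13.2% of all genes. The summed intensity of the 20 overlapped, at 67731 to 68212 in PIK3CA shRNA cells and 65687 to 69191 in control shRNA cells. The part of any such difference in the readings of the 10 genes was not tested.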

How the data were processed

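RNA of 344SQ cells was read on 6 Affymetrix arrays with a biotin label, per the labels' protocols. The authors' deposited intensities are linear, and the 6 arrays shared a minimum, a maximum and nearly equal quartiles, so the authors had already made their distributions equal, by a method not given in the sources used here. Medians per array were 134.1 to 134.7, and precision is limited by how few arrays there are.

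Arrays were scaled to a common median without the 64 control probe sets and taken to log2(intensity + 16). Probe sets with exactly 1 symbol were used (34945), and each gene took the one with the highest mean over the 6 arrays. limma 3.58.1 (R 4.3.3) compared the groups across all 18193 genes, and again across 45037 probe sets. Intervals are 95% moderated intervals. Single values also had an exact permutation test over the 20 assignments. The step was tested on simulated data.

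The 10 genes, the lists and the naming rule were chosen with earlier results of these data known. All 10 genes were named, with up to 4 called members per list. The core promoter box was added after the files were seen, and the 3 gene pairs after the values were seen. Same-numbered replicates did not deviate together (correlations 0.06, -0.01 and -0.02). Alternatives were a replicate block, 3 other scalings, pseudocounts of 1 and 64, a filter on dim genes, 2 other rules for probe sets, a trended robust prior, array weights, adjusted p 0.01 and leaving out each array. Figures used matplotlib 3.10.9 in Python 3.11.15.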

Additional observations from a re-analysis of the deposited data

How the results depend on the processing

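Thbs1 and Ccn1 passed under all 17 alternatives that kept the threshold, from -0.95 to -0.85 and from -0.72 to -0.65. The 3 other scalings among these could change little, because the deposited arrays already had nearly equal distributions. Sparc and Dcn lost their calls with the replicate block (limma adjusted p = 0.0756 and 0.0568), and Sparc also at adjusted p 0.01. With the block, 2 of the 10 genes, 0 of their 23 probe sets, 6 list genes and 413 of all genes passed. Of the 23 probe sets, 9 had an unadjusted limma p under 0.05, against 19.3% of all probe sets with exactly 1 symbol. Not all of the 6 list genes were among the 30 called without the block. The replicate numbers do not pair the samples by the labels or the check. At adjusted p 0.01, the counts were 636 genes, 10 list genes, 3 of the 10 genes and 2 probe sets, and with a trended robust prior 3192 genes. Leaving out 1 array gave 945 to 1138 genes, 15 to 21 list genes, 2 to 4 probe sets and 4 of the 10 genes each time; fewer arrays were then fitted. The mean of probe sets also ended the calls of Col5a1, Sdc2, Lats2, Fbn2 and Plod1, and a pseudocount of 1 those of Col6a1, Thbs3 and Efemp1. Choosing probe sets by interquartile range ended those of Col5a1, Col6a1, Thbs3, Igfbp7, Podn, Itgav, Sdc2, Smad3, Lats2, Plod1 and Fbln2. Col6a1, Thbs3 and Podn have only 1 probe set, so for them the readings were the same and only the fit over all genes differed. With dim genes left out, Thbs2, Tnc, Postn and Dcn had no value, and 6 of the 10 genes remained. The called list genes Tnr, Thbs3, Tgfb3, Efemp1 and Fbn2 had no value there either. With that filter, 1 further matricellular gene and 1 matrix assembly gene rose by limma, against 3 of each in the main fit. Signs of genes that never passed turned for Bgn (0.03 with the mean of probe sets, 0.18 without PIK3CA shRNA replicate 1, 0.02 without control replicate 2), Fn1 (-0.05 with the probe set chosen by interquartile range) and Thbs2 (0.16 without PIK3CA shRNA replicate 2, 0.33 without control replicate 1). The cause was not tested. The 95% intervals of Thbs2, Tnc, Postn and Bgn were wider than 1 on the log2 scale, so moderate changes of these genes were not detectable here.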

Other observations

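Genes of matrix assembly and cross-linking moved in both directions: of 21 measured, 3 rose and 2 fell by limma, with a median change of 0.03. Over all genes, 5.88% rose and 5.62% fell. At an unadjusted limma p under 0.05, 6 of the 21 were higher and 3 lower, against 12.7% and 13.2% of all genes. Pcolce, which encodes an enhancer of procollagen processing, fell to 3969 ± 19.1 in PIK3CA shRNA cells, against 5324 ± 47.0 in control shRNA cells (SD, n = 3 each). Its change of -0.42 (limma adjusted p = 0.00809) held without each array in turn. Efemp1, the fibulin-3 gene, read 102, 89.5 and 84.8 in PIK3CA shRNA cells against 22.0, 20.6 and 1.78 in control shRNA cells. It rose by 1.89 (limma adjusted p = 0.0193), a call lost without any 1 PIK3CA shRNA array (adjusted p up to 0.0737). The fibrillin-2 gene Fbn2 rose by 0.88, a call that held without control replicate 3 but not without any other array (up to 0.0620). The lysyl hydroxylase gene Plod1 was at -0.30, a call lost without any 1 array (up to 0.0854), as was that of the fibulin-2 gene Fbln2 at 0.30 (up to 0.110), named after its value was seen.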
